A study of Danio rerio with 7 samples.

Results

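Cell cycle and DNA replication genes were examined in bulk RNA-seq of the zebrafish hindbrain at 24 hours post-fertilisation (hpf). A list of 41 genes was matched by gene symbol, ignoring case, to the 32189 Ensembl IDs of the count table, and 39 genes had a single ID. The other two were left out of every count of members: mcm6, whose symbol was carried by 2 IDs, and birc5a, whose symbol was carried by none. Of the 39 members, 20 act in DNA replication, 4 are G1/S cyclins or their kinase, and 15 act in G2 or mitosis. The symbols of 32 members were written in human-style capitals in the table of gene names, so for these the match does not show which copy of a duplicated zebrafish gene an ID stands for.

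A dividing neural progenitor first licenses its replication origins by loading the Mcm helicase with the help of Orc, Cdc6 and Cdt1, then fires them in S phase, when polymerases, the PCNA clamp and its loader copy the genome. D-type and E-type cyclins drive entry into S phase, and A-type and B-type cyclins with Cdk1 drive entry into mitosis, where the spindle checkpoint and the chromosomal passenger complex control chromosome segregation. In the developing hindbrain such genes are transcribed in progenitors close to the ventricle, and they are switched off as cells leave the cycle and become neurons.

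The 3 Fgf20aHOM libraries, called F2, F3 and F4 here, came from homozygous fgf20a (dob) mutant embryos, which lack a normal copy of this secreted fibroblast growth factor gene, and they were set against 4 Cnt libraries from wild-type embryos of the LondonAB strain. Each library held the micro-dissected hindbrain of 1 embryo at 24 hpf, raised at the same temperature, and the labels add that tissue around the hindbrain came with it. The mutants came from crosses between homozygous mutants and no littermate controls were among the libraries, so genotype and line of origin cannot be told apart.

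The libraries held 52900433 to 55915518 counts in Fgf20aHOM and 59800936 to 69801072 counts in Cnt. The symbol FGF20 was carried by 2 IDs (ENSDARG00000007356 and ENSDARG00000086070), so fgf20a could not be told from its copy. These IDs had 160 to 271 and 257 to 504 counts in Fgf20aHOM libraries, against 135 to 426 and 206 to 993 in Cnt libraries. Transcript level did not separate the genotypes for either ID, and it does not check the labels, since a mutant transcript can still be made. All 4 hindbrain segment markers with a single ID were expressed in every library. Epidermal transcripts differed widely between libraries. The summed normalised count of 9 epidermal genes, 7 of them keratins, was 179584 to 623793 in Fgf20aHOM and 81778 to 1624279 in Cnt, with the highest sum in Cnt 4 and the lowest in Cnt 2. None of the 9 was at 0 in any library. The groups did not overlap for 2 of 7 neural crest genes (foxd3 and crestin, higher in Fgf20aHOM). The same held for epidermal krt91, 1 of 8 otic genes and 1 of 4 notochord and mesenchyme genes, all lower. The otic gene, stm, had 606 to 1571 normalised counts in Fgf20aHOM and 1703 to 20061 in Cnt. The notochord gene tbxta had 43 to 159 against 218 to 577. Across these genes the edgeR adjusted p was 0.0848 to 0.235. No vasculature, muscle or blood gene tested separated the groups. The bearing of these tissues on the values that follow was not tested.

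The comparison asked whether the cell cycle genes of the hindbrain differed in level in fgf20a mutants. For most of them no difference was found beyond the spread between embryos. None of the 39 members was called changed, where a call needed 3 things: an adjusted p no higher than 0.01 in edgeR, levels that differed 2-fold or more, and a normalised count above 30 in every library of at least 1 group. Over all 19589 genes tested, 86 were called (0.439%). DESeq2, the method used in the study, called 1 member, chaf1b, beside 3.1% of all genes, and limma-voom called 0 beside 0.505%. At an adjusted p of at most 0.05 alone there was 1 member, chaf1b, beside 1.51% of all genes. All 39 members passed the filter on low counts, with raw counts of at least 472 in every library, so no member was lost for lack of depth.

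At an unadjusted p under 0.05 there were 6 members (15.4%), which is close to the 15.6% of all genes. Of these, 5 had higher levels in Fgf20aHOM (mcm7, mcm10, pole, chaf1b and bub1), beside 8.44% of all genes in that direction. The remaining one, ccne2, had lower levels, beside 7.21% of all genes. The 3 Fgf20aHOM libraries lay outside the range of all 4 Cnt libraries for 4 members (10.3%), whereas this held for 17.5% of all genes. Of these, 3 were higher in Fgf20aHOM (mcm7, chaf1b and bub1, beside 9.46% of all genes) and 1 was lower (cdc6, beside 8.03%). The median log2 fold change of the members was -0.11, with 15 values above 0 and 24 below, and that of all genes was -0.05. In bulk tissue, fewer cells of a type and less RNA per cell cannot be told apart.

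The estimates were also narrow compared with most genes. The 95% interval of the log2 fold change lay wholly between -1 and 1 for 23 of the 39 members, against 24.1% of all genes tested. These shares are not matched for level. Every member had at least 472 raw counts in each library, whereas the genes tested include many with low counts. For these 23 genes the fitted intervals leave out a change of 2-fold or more in either direction. Members as a group took 1.83% to 1.95% of all counts in Fgf20aHOM libraries and 1.86% to 1.98% in Cnt libraries, and these ranges overlapped.

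**Figure D1:**
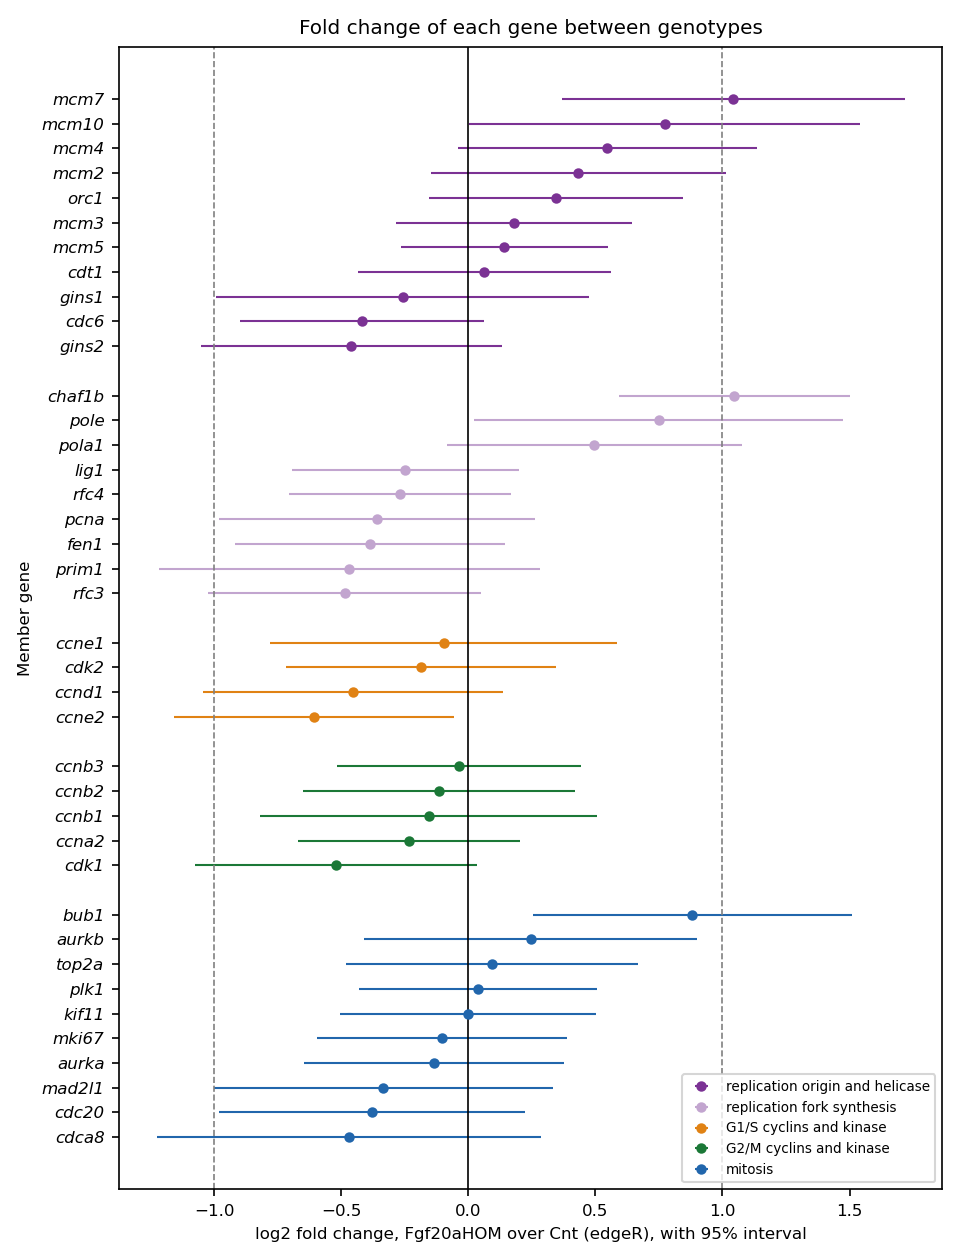
Log2 fold change of each of the 39 members, Fgf20aHOM over Cnt, as fitted by edgeR (points) with its 95% interval (bars), grouped by role. The dashed lines mark a 2-fold difference. The highest value was that of chaf1b at 1.05 and the lowest that of ccne2 at -0.61. All 9 cyclin and Cdk genes among the members lay below 0 in this fit, but ccnb3 and ccne1 lay above 0 in limma-voom.

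Among the genes that license origins and form the helicase, 8 of 11 had a fitted fold change above 0 and the median was 0.18, and none passed an adjusted p of 0.05. The highest was mcm7 (ENSDARG00000101180), a subunit of the ring-shaped helicase that unwinds DNA. Its normalised counts were 41779, 34575 and 25575 in Fgf20aHOM F2, F3 and F4, against 14486, 10449.9, 25257 and 15765 in Cnt 1 to 4. The groups did not overlap, although Fgf20aHOM F4 and Cnt 3 were almost level. Its fitted log2 fold change of 1.04 ± 0.30 (SE) had an edgeR adjusted p of 0.141.

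The other helicase subunits differed less. The fitted log2 fold change was 0.55 ± 0.26 for mcm4 and 0.43 ± 0.26 for mcm2. These values came largely from 1 embryo: mcm4 had 60868, 35783 and 31373 normalised counts in Fgf20aHOM F2, F3 and F4, against 24504 to 35862 in Cnt, and mcm2 had 77385, 45509 and 42057 against 34402 to 51541. F2 alone lay above the Cnt range for both genes. Without F2 the log2 fold changes were 0.20 and 0.11. For mcm5 the 7 libraries differed least among all members, with 1.28-fold between the highest and the lowest. The gene mcm10, which helps to activate the helicase, was also highest in F2, but F3 lay above the Cnt range too. It had 1454, 949 and 736 normalised counts in Fgf20aHOM F2, F3 and F4, against 459 to 895 in Cnt. Its log2 fold change was 0.77 ± 0.35 (adjusted p = 0.317 by edgeR) and 0.46 without F2.

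The lowest values of this set were those of gins2 and cdc6. Cdc6 loads the helicase onto origins in G1. It had 6470, 10784 and 9080 normalised counts in Fgf20aHOM F2, F3 and F4 (ENSDARG00000009942), against 12025, 11973, 11438 and 11428 in Cnt 1 to 4. The Cnt libraries were nearly equal, with a coefficient of variation of 2.79%, the smallest of any member in Cnt, and all 3 mutants lay below them. A log2 fold change of -0.42 ± 0.22 did not pass the test (adjusted p = 0.388 by edgeR), and it was -0.24 without F2. The gins2 gene encodes a subunit of the GINS complex, which joins the helicase when origins fire. It had 5421, 7117 and 5309 normalised counts in Fgf20aHOM F2, F3 and F4, against 7860.04, 5417, 8194 and 11254 in Cnt 1 to 4. The groups overlapped, and the log2 fold change was -0.46 ± 0.27 (adjusted p = 0.444 by edgeR), or -0.23 without Cnt 4. The 2 IDs that share the symbol MCM6 had log2 fold changes of -0.08 ± 0.24 (ENSDARG00000057683) and -1.58 ± 0.90 (ENSDARG00000033231), and the second of these had only 18 to 166 raw counts.

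**Figure D2:**
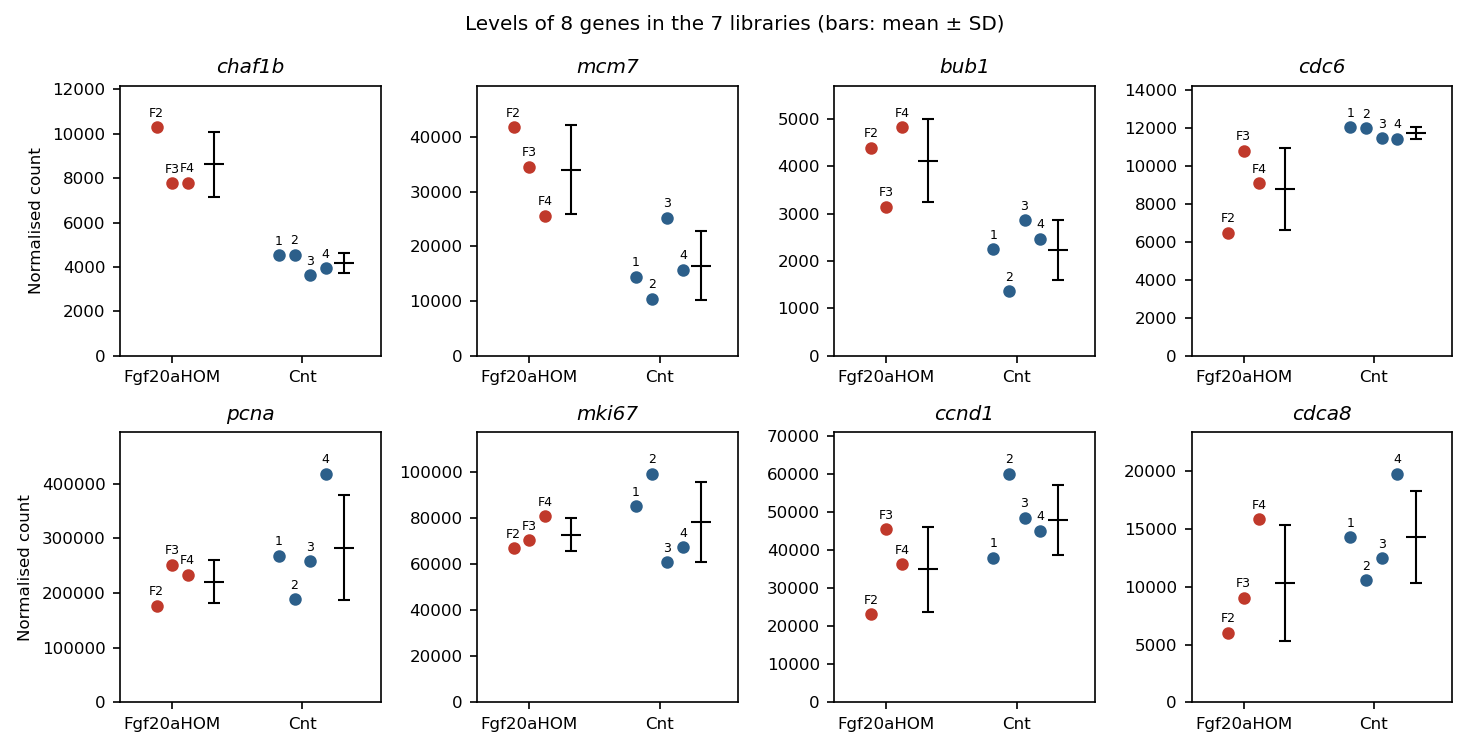
Normalised counts of 8 members in each library, with Fgf20aHOM in red (F2, F3, F4) and Cnt in blue (1 to 4), and the mean ± SD of each group beside the points. The groups do not overlap for chaf1b, mcm7, bub1 and cdc6, and they overlap for pcna, mki67, ccnd1 and cdca8.

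Of the 9 genes that copy DNA at the fork and package it, 3 had values above 0 and 6 below, with a median of -0.27. The highest was chaf1b (ENSDARG00000056473), a subunit of the chromatin assembly factor that deposits histones on new DNA. It had 10299.8, 7764 and 7801 normalised counts in Fgf20aHOM F2, F3 and F4, against 4536, 4566, 3646 and 3947 in Cnt 1 to 4. All mutants were thus well above all controls. The mean was 8621 ± 1454 in Fgf20aHOM (SD, n = 3) and 4174 ± 453 in Cnt (SD, n = 4). Fitted by edgeR, its log2 fold change was 1.05 ± 0.20 (SE, adjusted p = 0.0383), which passes 0.05 and misses the 0.01 of a call. DESeq2 gave chaf1b an adjusted p of 3.8e-04 and called it. In edgeR the adjusted p was 0.126 without F2, and it passed 0.05 in no fit that left out a library, with log2 fold changes of 0.84 to 1.16 over all alternative fits.

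The 2 replicative polymerase genes among the members also had values above 0. Their levels in Fgf20aHOM F2 stood out. The catalytic subunit of polymerase epsilon, pole, had 8512, 4408 and 4258 normalised counts in Fgf20aHOM F2, F3 and F4, against 2209 to 4657 in Cnt, and a log2 fold change of 0.75 ± 0.33 (adjusted p = 0.303 by edgeR). The catalytic subunit of polymerase alpha, pola1, had 13443, 8820 and 7341, against 5786 to 8719 in Cnt, and a log2 fold change of 0.50 ± 0.26. Without F2 the log2 fold changes were 0.35 for pole and 0.21 for pola1.

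The other 6 fork genes (pcna, prim1, lig1, rfc3, rfc4 and fen1) shared the opposite pattern. Each was lowest in Fgf20aHOM F2 and highest in Cnt 4. The lowest fold change was that of rfc3, a subunit of the clamp loader, with 10053, 15558 and 13909 normalised counts in Fgf20aHOM F2, F3 and F4, against 18217, 15057, 16368 and 24171 in Cnt 1 to 4. F3 lay within the Cnt range, and the log2 fold change was -0.49 ± 0.24 (adjusted p = 0.365 by edgeR), or -0.30 without Cnt 4. The sliding clamp gene pcna (ENSDARG00000054155), a common marker of proliferating cells, had 176866, 251659 and 233850 in Fgf20aHOM, against 268327, 188546, 258023 and 418522 in Cnt. Cnt 4 was the highest of these values, and the ranges of the genotypes overlapped. The log2 fold change of pcna was -0.36 ± 0.28 (adjusted p = 0.575 by edgeR), with a 95% interval from -0.98 to 0.26, and it was 0.00 without Cnt 4 and F2.

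All 4 G1/S members had values below 0, with a median log2 fold change of -0.32, and none passed the test. Cyclin D1 (ccnd1, ENSDARG00000101637), which links growth factor signals to the cycle, had 23274, 45502 and 36408 normalised counts in Fgf20aHOM F2, F3 and F4, against 38082, 60189.8, 48616 and 45235 in Cnt 1 to 4. Its log2 fold change was -0.45 ± 0.26 (adjusted p = 0.446 by edgeR), F3 lay within the Cnt range, and without F2 the value was -0.23. The lowest value of all members was that of ccne2, an E-type cyclin, with 8756, 12540.5 and 12526 in Fgf20aHOM, against 17401, 12407, 16659 and 22199 in Cnt. Cnt 2 lay within the mutant range, and the log2 fold change was -0.61 ± 0.25 (adjusted p = 0.271 by edgeR). Its relative ccne1 had 2454, 4099.6 and 4772 in Fgf20aHOM, against 2447, 4203, 4828 and 4671 in Cnt, so that each group had 1 embryo with a low value, and the log2 fold change was -0.10 ± 0.31. For Cdk2, the kinase that the E-type cyclins activate, the libraries ranged from 11291 to 17157 in Fgf20aHOM and from 12851 to 20990 in Cnt. The median of this set was closer to 0 when F2 was left out (-0.12), and F2 was the lowest library for 3 of its 4 genes.

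The 5 genes of the G2/M cyclins and Cdk1 had a median log2 fold change of -0.16. Cdk1 is the kinase that starts mitosis. Its gene had the lowest value of this set, with 15115, 25287 and 23463 normalised counts in Fgf20aHOM F2, F3 and F4 (ENSDARG00000087554), against 27029, 25168, 30743 and 39139 in Cnt 1 to 4. F2 was far below the rest, F3 lay within the Cnt range, and the log2 fold change was -0.52 ± 0.25 (adjusted p = 0.349 by edgeR), or -0.32 without F2 and -0.34 without Cnt 4. The highest was ccnb3, a B-type cyclin, with 5892, 7911 and 8649.8 in Fgf20aHOM, against 7011, 7154, 7261 and 9297 in Cnt. The groups overlapped almost wholly, with a log2 fold change of -0.04 ± 0.22. For ccna2, ccnb1 and ccnb2 the groups overlapped too. The gene ccnb1 had an unusual profile, with its highest levels in Cnt 2 (23516) and Fgf20aHOM F2 (18085) and 10809 to 13601 in the other libraries.

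Among the 10 mitosis genes, 4 had values above 0 and 6 below, with a median of -0.05. The highest was bub1 (ENSDARG00000077029), a kinase of the spindle checkpoint. It had 4383, 3142 and 4819 normalised counts in Fgf20aHOM F2, F3 and F4, against 2245, 1365, 2855 and 2469 in Cnt 1 to 4. The groups did not overlap, with F3 and Cnt 3 the closest pair. The log2 fold change was 0.88 ± 0.28 (adjusted p = 0.174 by edgeR), and unlike the values of mcm2 or pola1 it was little altered without F2, at 0.83. The lowest was cdca8, which encodes borealin of the chromosomal passenger complex, with 6029, 9049 and 15831 in Fgf20aHOM, against 14263, 10574, 12470.01 and 19780.1 in Cnt. The mutant range took in Cnt 1 to 3, and the log2 fold change was -0.47 ± 0.34 (adjusted p = 0.545 by edgeR). Single libraries moved it widely, to -0.20 without F2, -0.25 without Cnt 4 and -0.92 without F4. The other passenger complex gene among the members, aurkb, had 13205 to 23741 in Fgf20aHOM and 12627 to 24694 in Cnt. BIRC5, the ID whose symbol may stand for the unmatched member birc5a of the same complex, had a log2 fold change of -0.30 ± 0.29.

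The proliferation marker mki67 (ENSDARG00000091150) was at a similar level in both genotypes. It had 66967, 70424 and 80785 normalised counts in Fgf20aHOM F2, F3 and F4, against 85200.2, 99199, 60843 and 67309 in Cnt 1 to 4. All mutants lay within the Cnt range, the log2 fold change was -0.10 ± 0.22, and the 95% interval ran from -0.60 to 0.39. The spindle motor gene kif11 had means of 65268 ± 17893 in Fgf20aHOM (SD, n = 3) and 65300 ± 4586 in Cnt (SD, n = 4). Top2a, the topoisomerase that untangles sister chromatids, had 41687 to 45886 in Fgf20aHOM and 29903 to 60331 in Cnt.

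**Figure D3:**
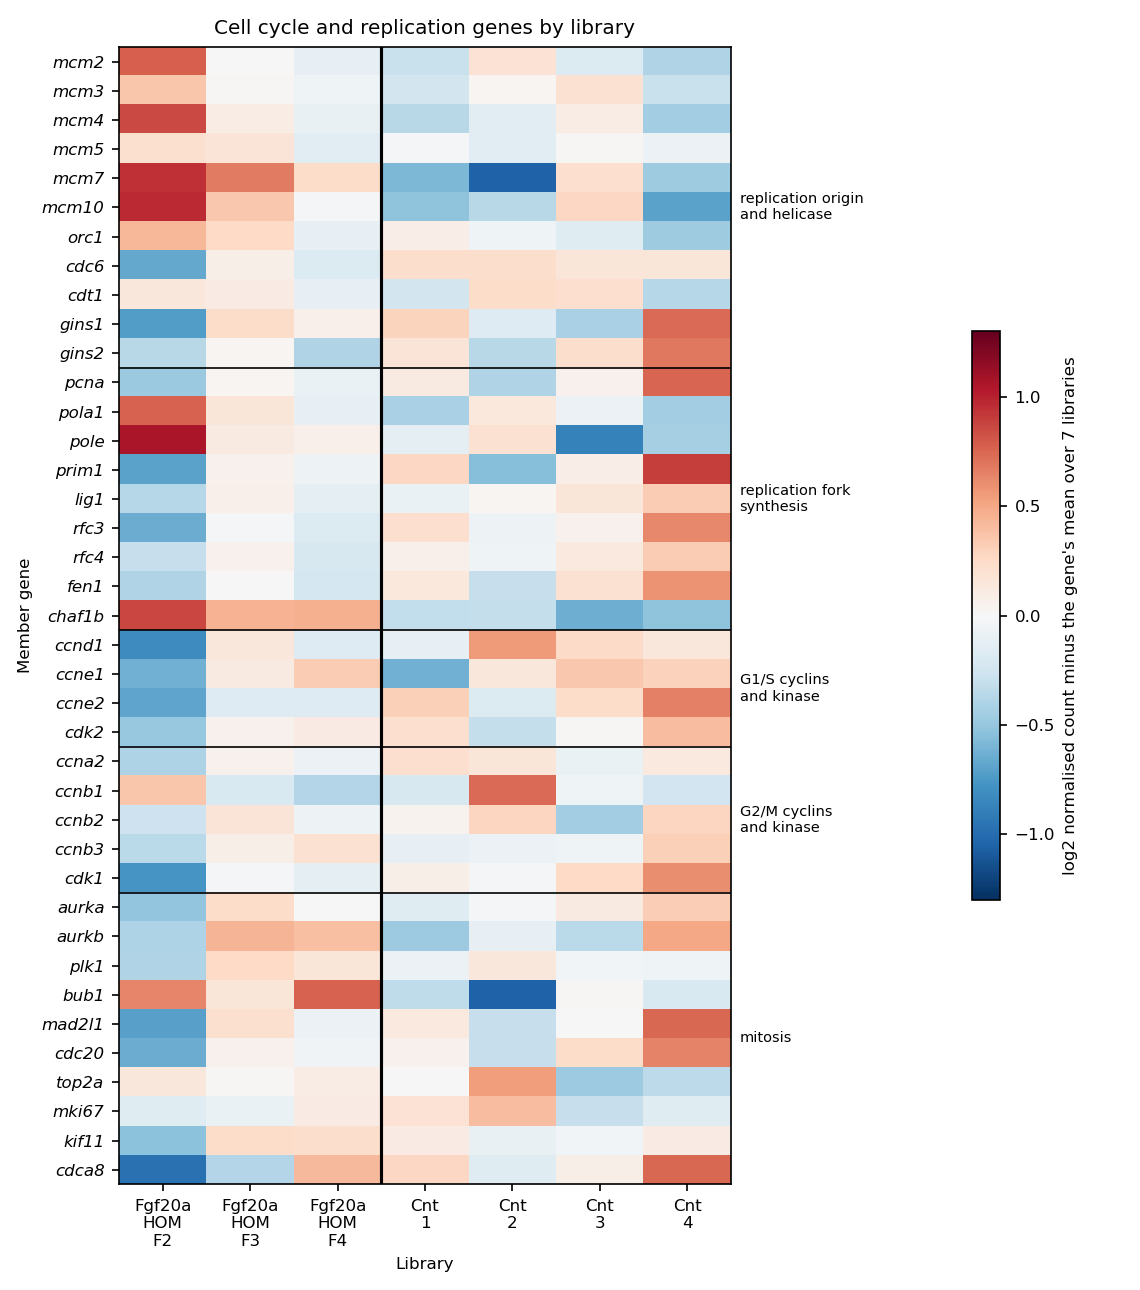
Level of each member (rows, grouped by role) in each library (columns, Fgf20aHOM left of the black line and Cnt right of it), as the log2 normalised count minus the mean of that gene over the 7 libraries. Fgf20aHOM F2 and Cnt 4 most often take the strongest colours, at opposite ends of the same gene for 21 members, whereas F3 and F4 stay close to 0 for most genes.

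A single embryo of each genotype held most of the extreme values. Fgf20aHOM F2 was the highest of the 7 libraries for 10 members and the lowest for 20, so that it stood at an end of the range for 76.9% of members, against 41.7% of all genes tested. Cnt 4 was the highest for 18 members and the lowest for 7, 64.1% in all, against 46.2% of all genes. By contrast Fgf20aHOM F3 and F4 were at an end for 2 and 3 members (5.13% and 7.69%), against 15.8% and 19.4% of all genes. F2 and Cnt 4 held the opposite ends of the same gene for 21 members (53.8%), against 20.8% of all genes. These shares are a description, since members of a pathway share their libraries.

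**Figure D4:**
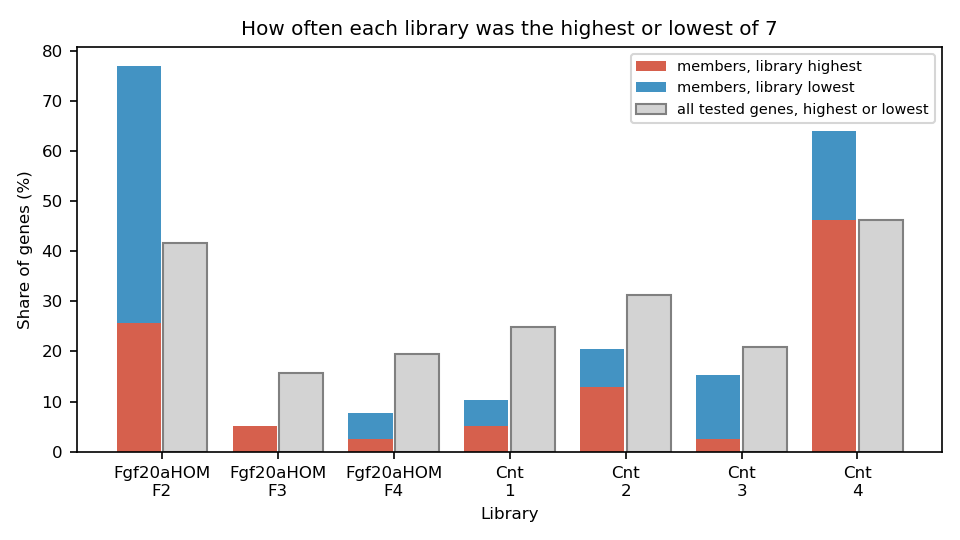
Share of the 39 members for which each library had the highest (red) or lowest (blue) normalised count of the 7, beside the share of all genes tested for which it had either (grey). Fgf20aHOM F2 reached 76.9% and Cnt 4 reached 64.1%, and the other libraries lay between 5.13% and 20.5%.

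The direction in which F2 departed differed by role in the medians, but it also differed within roles. For origin and helicase genes F2 was the highest library in 7 of 11, and its level divided by the mean of F3 and F4 had a median of 1.27. For fork genes this ratio had a median of 0.826, for G1/S genes 0.619, for G2/M genes 0.763 and for mitosis genes 0.639. It was below 1 for 3 of 11 origin and helicase genes. It was above 1 for 3 of 9 fork genes, 1 of 5 G2/M genes and 2 of 10 mitosis genes. F2 was the lowest library in 6 of 9 fork genes, 3 of 4 G1/S genes, 3 of 5 G2/M genes and 6 of 10 mitosis genes. Cnt 4, divided by the mean of Cnt 1 to 3, ran the other way, with medians of 0.815 for origin and helicase genes, 1.23 for fork genes, 1.28 for G1/S genes and 1.22 for G2/M genes, and it was above 1 for 7 of 10 mitosis genes. The 6 genes with F2 at the top and Cnt 4 at the bottom were mcm2, mcm3, mcm4, mcm10, orc1 and pola1, and 15 genes had the reverse. Cnt 4 also had the lowest TMM factor (0.879) and the highest epidermal sum (1624279), and F2 the highest TMM factor (1.07) and the highest epidermal sum of the mutants (623793). Cnt 1 had a similar epidermal sum to Cnt 4 (1518585) and was at an end for only 4 members. The part of these library properties in the pattern was not tested. With both F2 and Cnt 4 left out, a choice made after seeing the data, 21 members had values above 0 and 18 below, none was called and none passed an adjusted p of 0.05 in edgeR.

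The members varied moderately between embryos of one genotype. Their coefficient of variation had a median of 22.6% in Fgf20aHOM and 21.7% in Cnt, and the median over all genes was 28.9% and 37.2%. All genes include those of low count, so these medians are not matched for level. The ratio of the highest to the lowest of the 7 libraries had a median of 2.12 over members, and the widest was that of mcm7, at 4.00. Over genes with a mean normalised count above 1000 this median was 2.25, close to that of the members.

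Further cell cycle genes, from 4 lists chosen with earlier results of these data known, were set beside the members. Of 41 other replication genes 38 were tested, and none passed an adjusted p of 0.05. Their median log2 fold change was -0.30, with 11 values above 0 and 27 below, and 4 (10.5%) had an unadjusted p under 0.05 in edgeR, beside 15.6% of all genes. Of 64 other mitosis genes 54 were tested, with a median of -0.06, 22 values above 0 and 32 below. None passed an adjusted p of 0.05, and 13 (24.1%) had an unadjusted p under 0.05, of which 10 were above 0 and 3 below, beside 15.6% of all genes, 8.44% above 0 and 7.21% below. Among the 10 were bub3, the partner of bub1 in the spindle checkpoint, and smc4, a condensin subunit, which are named here after their values were seen. Their functions as a whole did not share this direction. Of other checkpoint genes, ttk was also among the 10, with a log2 fold change of 0.48 and groups that did not overlap. By contrast bub1bb had -0.16 and mad2l1 -0.34, with overlapping groups. The other condensin genes tested all lay below 0, from -0.05 (smc2) to -0.55 (ncaph2).

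Of 25 further G1/S regulators 18 were tested, with a median of 0.16, and 1 passed an adjusted p of 0.05. This was e2f4 (ENSDARG00000101578), an E2F factor that with Rb family proteins represses cell cycle genes in quiescent mammalian cells. It had 5898, 5114 and 4327 normalised counts in Fgf20aHOM F2, F3 and F4, against 1961, 1309, 791 and 1928 in Cnt 1 to 4. Every mutant was above every control by a wide margin. Its log2 fold change of 1.77 ± 0.32 (edgeR adjusted p = 0.0258) misses the 0.01 of a call. Values of 1.56 to 2.09 were found over all alternative fits, and the adjusted p was 7.8e-05 in DESeq2 and 0.0044 with a filter of at least 1 CPM in all libraries, which are calls, and 0.0327 to 0.113 with each library left out in turn. It was 0.152 without Cnt 4 and F2. Unlike the cyclin and Cdk genes among the members, cdk4, cdk6 and ccnd3 of this list had log2 fold changes above 0 (0.28, 0.95 and 0.82). Their edgeR adjusted p was 0.335 to 0.83.

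Markers of progenitors and neurons, which differ in how much they cycle, were read from the same libraries. Of 18 neural progenitor markers 10 had a single ID and were tested, and 9 had values above 0, with a median log2 fold change of 0.28. One, sox19b, a SoxB1 factor, was called, with 5942, 5972 and 2502 normalised counts in Fgf20aHOM F2, F3 and F4, against 232 to 717 in Cnt and an edgeR adjusted p of 0.00588. This call was lost without any single library other than F4, at an adjusted p of 0.0112 to 0.0339, as well as with 1 surrogate variable (0.0288) and without Cnt 4 and F2 (0.0847), while the log2 fold change stayed at 3.01 to 3.63. The summed normalised count of these 10 was 181098 to 227635 in Fgf20aHOM and 140046 to 200445 in Cnt. Of 25 markers of differentiating and early neurons 16 were tested, none passed an adjusted p of 0.05, and the median was 0.13. Their sum was 141141 to 161552 in Fgf20aHOM and 109605 to 146131 in Cnt. No marker of either list was at 0 in any library, and the sums of the genotypes overlapped for both. Gene by gene, the groups did not overlap for 4 progenitor markers (40%) and 5 neuron markers (31.2%), all higher in Fgf20aHOM. Over all genes this held for 17.5%, with 9.46% higher. An unadjusted p under 0.05 in edgeR was found for 3 (30%) and 4 (25%), all higher, beside 15.6% of all genes and 8.44% higher. Whether the balance of progenitors and neurons bears on the members' values was not tested.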

How the data were processed

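Bulk RNA-seq of dissected hindbrains was analysed in 7 libraries (4 Cnt, 3 Fgf20aHOM). The authors amplified cDNA (Ovation RNA-Seq System), made Nextera XT libraries and sequenced paired-end reads of 75 bases. Per the labels, STAR 2.5.1b and RSEM 1.2.31 were used with the genome GRCz10, and the study's methods give Ensembl release 89. The deposited values are gene-level expected counts (RSEM's estimated counts), rounded to whole numbers by the authors and not scaled for depth. RSEM splits reads shared by similar genes, so counts of close copies are less certain, and whether strand was used is not given in the sources used here.

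Gene symbols were found for 26350 of 32189 IDs (81.9%). No positions are given, since no annotation of GRCz10 was used here. The columns of Fgf20aHOM were numbered 2 to 4 and the sample titles 1 to 3, so their group was known but not which sample each was.

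The main test was edgeR 4.0.16 in R 4.3.3 (quasi-likelihood F test, robust, TMM, filterByExpr, genotype as the only term, two-sided, Benjamini-Hochberg adjustment over 19589 genes). Normalised counts are counts scaled to the mean TMM-adjusted library size. The log2 fold change is Fgf20aHOM over Cnt, and its SE was derived from the F statistic. The limits of a call are those of the study, which applied them to DESeq2 results and not to edgeR. Alternatives used DESeq2 1.42.0, limma-voom 3.58.1, 1 surrogate variable (sva 3.50.0), other scaling factors and filters, summed IDs of mcm6, a replicate block on column numbers and each library left out. The model was tested on simulated counts.

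Members, lists and rules were chosen with earlier results of these data known. Values by library are given for members whose genotypes do not overlap, for the highest and lowest fold change in each of 5 role lists, and for pcna, mki67, ccnd1 and cdca8. Further members with values by library (mcm2, mcm4, mcm10, pole and pola1) were added after their values were seen.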

Additional observations from a re-analysis of the deposited data

Results flagged for a closer look

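Among 45 measures examined in the 4 Cnt libraries, 2 had a library far from the others, where chance would give about 2.25. For ccnb1, a B-type cyclin, Cnt 2 had 23516 normalised counts and the other Cnt libraries 11824 to 13601, and the gap to the nearest library was 0.848 of the range. For ccnb3 the gap was 0.8909 of the range, with 9297 normalised counts in Cnt 4 and 7011 to 7261 in the other Cnt libraries. Groups of 3 were not examined in this way, so no such check was made in Fgf20aHOM.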

How the results depend on the processing

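No member was called in edgeR, under any scaling, filter or left-out library, whereas DESeq2 called 1 (chaf1b, among 635 genes called, 3.1%), and an adjusted p of at most 0.05 with the fold and count limits kept gave 1. An adjusted p of at most 0.05 was reached by 2 members in DESeq2 (mcm7 and chaf1b, beside 6.65% of all genes), by 0 with 1 surrogate variable and by 0 without Cnt 4 and F2. With each library left out in turn the number was 0 to 0.

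The G1/S median of -0.32 moved to -0.11 without Cnt 4 and F2 and ranged from -0.45 to -0.12 with each library left out. The G2 and mitosis median of -0.11 moved to 0.0405 in limma-voom and was 0.0332 without Cnt 4 and F2. The replication median of 0.10 was 0.0022 without Cnt 4 and F2 and 0.0305 to 0.19 with each library left out. The log2 fold change of ccnb3 was 0.071 in limma-voom, 0.0491 with library totals only, 0.0886 with 1 surrogate variable and 0.19 without Cnt 4 and F2, and it ranged from -0.15 to 0.11 with each library left out. That of ccne1 was 0.14 in limma-voom and 0.19 without Cnt 4 and F2, and it ranged from -0.30 to 0.14 with each library left out. That of pcna was 0.0102 with 1 surrogate variable and 0.0012 without Cnt 4 and F2. That of mki67 ranged from -0.21 to 0.0309 with each library left out. The cause of these shifts was not tested. The alternative fits of mad2l1 are not given here. With F2 and Cnt 4 set aside, mad2l1 had 21127 and 17333 normalised counts in F3 and F4, against 14813 to 19925 in Cnt 1 to 3. Every other member named with a fold change kept its sign in 19 of 19 alternative fits. Counting the mcm6 or BIRC5 IDs differently left the counts of those genes as they were, so these fits could not reverse a sign. Where the groups did not overlap, leaving out a library could hardly do so either. Without Cnt 4 and F2 the log2 fold change of mcm2 was 0.0032 and that of cdca8 was -0.0265. With 1 surrogate variable that of gins2 was -0.16. Libraries of the 2 genotypes came from separate embryos, and the numbers in the sample titles of Fgf20aHOM could not be tied to columns. A fit with a replicate block on the numbers in the column names (2 to 4 in both genotypes), added after seeing the data, called 0 members, put 0 at an adjusted p of at most 0.05 and called 6 genes in all, against 86 without the block. Cnt 1 has no same-numbered mutant, so it adds nothing to the genotype contrast of that fit. The block also leaves fewer degrees of freedom, so these counts of calls are not alike in power. Same-numbered libraries did not deviate together over genes (correlations of -0.0177, -0.0938 and 0.0112), and pairs with different numbers had -0.1227 to 0.1387. The numbers were not taken as pairs in the main test. With so few libraries these correlations cannot show whether same-numbered libraries were handled together. With 3 and 4 embryos, differences as small as those of most members could not be told from the spread between embryos.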

Other observations

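Genes of cell cycle exit, which the members do not include, were read from a list of 24, of which 14 had a single ID and 11 passed the filter. Their median log2 fold change was -0.41, with 3 values above 0 and 8 below. None passed an adjusted p of 0.05 in edgeR, and 5 (45.5%) had an unadjusted p under 0.05, beside 15.6% of all genes. These 5 were chosen for mention after their values were seen. The Cdk inhibitor cdkn1a (p21) had 147, 189 and 221 normalised counts in Fgf20aHOM F2, F3 and F4, against 233, 265, 777 and 469 in Cnt 1 to 4, so the groups did not overlap. Its log2 fold change was -1.23 ± 0.49 (adjusted p = 0.265 by edgeR).

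The G-type cyclin gene ccng1 had a log2 fold change of -0.64 ± 0.26, with overlapping groups. The antiproliferative gene btg3 had 3458 to 5286 normalised counts in Fgf20aHOM and 5845 to 7789.7 in Cnt, with no overlap, and a log2 fold change of -0.59 ± 0.23. The Cdk inhibitor cdkn1cb had a log2 fold change of -0.71 ± 0.32, with overlapping groups. The antiproliferative gene btg2, known in the mouse from neurogenic progenitors, went the other way, with 11734, 11234 and 11458 normalised counts in Fgf20aHOM, against 7112, 9593, 7233 and 5959 in Cnt, and a log2 fold change of 0.62 ± 0.21 (adjusted p = 0.195 by edgeR). All 5 kept their sign in each of 19 alternative fits, which reuse the libraries in which they were picked. The fits that count the mcm6 or BIRC5 IDs differently left the counts of all 5 as they were. Without Cnt 4 and F2 all 5 values were closer to 0, and none of the 5 had an unadjusted p under 0.05 in edgeR (0.0515 to 0.155). The log2 fold changes were then -1.07 for cdkn1a, -0.34 for ccng1, -0.38 for btg3, -0.58 for cdkn1cb and 0.48 for btg2.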
